A study of Mus musculus with 40 samples.

Results

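The genes described here encode the proteins of the cytosolic ribosome. They were chosen by symbol: Rpsa, Rplp0, Rplp1, Rplp2 and every Rpl or Rps symbol with a number, without the Rps6k kinases and without names ending in -ps. The rule found 85 of the 23284 genes in the table of the pI-pC and antibody experiments, 52 of the large subunit and 33 of the small subunit. In each of the 2 tamoxifen tables, which list 23107 genes, 0 rows met the rule. Names with rpl or rps anywhere in them numbered 186 in the first table and 8 in each tamoxifen table, so the ribosomal protein genes are not analysed here after tamoxifen.

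The RNA came from 2 sorted populations of the C57BL/6 thymus. ETP (early T-cell precursors) are the first stage of T-cell development there, and DN3 (double-negative 3) cells are the later stage at which the T-cell receptor beta chain is selected. The 24 libraries used form 8 groups of 3. In the pI-pC experiment, MxCreZmiz1f/f mice (DeltaMxCre groups) were set against MxCre mice, and all of them received 40 mcg of pI-pC 5 times at intervals of 2 days and were sorted 8 weeks later. Zmiz1 is a transcriptional co-activator of Notch1. Mx-Cre is driven by an interferon-inducible promoter that is active in many cell types, so Zmiz1 was not deleted in T cells alone, and the controls carried the Cre and received the inducer too. In the antibody experiment, mice received 10 mg/kg of anti-NRR Notch1 antibody (AntiNRR groups), which holds the receptor in its closed, inactive form, or isotype control IgG, and were sorted at 24 hours. The labels give 3 mice per pI-pC group and no number for the antibody groups. They give no age, and they do not say whether the ETP and DN3 libraries with one replicate number came from the same mouse. Where the libraries of a group do not come from separate mice, the p-values measure technical spread only.

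A ribosome holds 1 copy of most of these proteins, and the cell makes them in matched amounts, so their mRNAs are usually abundant and move together. Transcription of the genes is raised by Myc, and translation of the mRNAs is raised through mTOR by a run of pyrimidines at the 5′ end (the 5′ terminal oligopyrimidine, or TOP, motif). A few members have close paralogs that can take their place in the ribosome. Rpl22 is known in the thymus because its loss arrests alpha-beta T-cell development, and Rpl22l1 is its paralog. Rpl5 and Rpl11 can bind Mdm2 and so link ribosome assembly to p53, and Rps27l is a p53 target.

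Some members have a run of pyrimidines near the annotated start site and others do not. RefSeq promoters on GRCm38.p6 matched 64 of the 85 genes, with 76 start sites. Each sequence below covers 15 bases before the annotated start and 15 from it, 5′ to 3′ on the gene's strand, and capitals mark runs of at least 7 bases that are all C or T. Rpl35, Rpl13, Rpl12, Rps12 and Rpsa are shown because they fell in DN3 cells after Notch1 blockade (5 of the 8 that did have a start site in the table, 4 with a run and Rpsa without), Rpl27a and Rps6 because they were among the strongest stage differences, Rpsa again and Rps19 because they fell after Zmiz1 deletion, and the Rpl22 pair for the paralog comparison.
Rpl35 (chr2:39005117-39005146, minus strand): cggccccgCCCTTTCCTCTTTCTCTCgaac
Rpl13 (chr8:123102335-123102364, plus strand): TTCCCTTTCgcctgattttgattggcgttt
Rpl12 (chr2:32961697-32961726, plus strand): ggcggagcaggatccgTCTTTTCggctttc
Rps12 (chr10:23787195-23787224, minus strand): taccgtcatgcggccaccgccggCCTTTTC
Rpl27a (chr7:109519180-109519209, plus strand): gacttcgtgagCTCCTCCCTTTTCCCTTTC
Rps6 (chr4:86857353-86857382, minus strand): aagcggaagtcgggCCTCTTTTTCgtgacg
Rpsa (chr9:120127751-120127780, plus strand): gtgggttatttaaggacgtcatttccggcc
Rps19 (chr7:24884577-24884606, plus strand, the first of 3 annotated starts, of which the third has a run): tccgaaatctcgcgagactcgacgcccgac
Rpl22 (chr4:152325711-152325740, plus strand, the second of 2 annotated starts): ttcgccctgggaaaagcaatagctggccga
Rpl22l1 (chr3:28805493-28805522, plus strand): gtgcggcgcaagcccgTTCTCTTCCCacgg
Such a run lay in the window at 35 of the 76 start sites (46.1%), against 18.6% of all 32851 promoters in the RefSeq table. The E-box CACGTG, the same on both strands, lay in the 300-base promoter window of 8 of the 76 (10.5%), against 7.15% of all promoters. These are matches of letters around annotated starts and not mapped transcription starts. A run can lie wholly before the start, as in Rpl13, so the runs do not show which members carry a TOP motif. In IgG-treated mice the median log2 fold change from ETP to DN3 was -0.57 over the 33 tested members with a run (23 called lower) and -0.53 over the 28 without (19 called lower). After the Notch1 antibody in DN3 the median was -0.26 over 33 members with a run and -0.25 over 29 without.

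Total counts per library ran from 9456818 to 23962395. Zmiz1 stood at 58.7, 96.3 and 114 CPM (counts scaled to a fixed library total) in the DeltaMxCre ETP libraries against 319, 239 and 157 in MxCre, and at 117, 129 and 113 against 286, 349 and 317 in DN3, so each deleted library was below each control. Cd44 and Kit, which mark ETP, were higher in ETP (88.5 ± 44.5 and 273 ± 111 CPM in IgG, mean ± SD, n = 3) than in DN3 (2.48 ± 0.233 and 98.9 ± 8.98), and Ptcra, which DN3 cells need, was lower (33.0 ± 8.11 against 206 ± 11.4). Dtx1, a Notch target, was lower after the antibody in DN3 (log2 fold change -3.94, adjusted p = 0.00576, edgeR) and higher after Zmiz1 deletion in DN3 (1.13, adjusted p = 0.00115). Il2ra, which encodes CD25, stood at 2159 ± 369 CPM in IgG ETP and 3413 ± 305 in IgG DN3, although the labels describe both sorts as CD44+ and CD25-. The low Cd44 in DN3 goes against that wording too. The stage markers also moved with treatment within a sort. Summed over 7 of them, these 5 genes included, they ran from 2714 to 3650 CPM in MxCre ETP and from 6274 to 6959 in DeltaMxCre ETP. In IgG ETP they ran from 3280 to 4318 and in AntiNRR ETP from 1216 to 2198. In DN3 the sums overlapped between MxCre and DeltaMxCre, and fell from 9512 to 9765 in IgG to 5119 to 5838 in AntiNRR. The part of these shifts in the comparisons was not tested. Library 3 of MxCre ETP stood apart, with Malat1 at 0.0777% of its counts (0.422% and 0.484% in libraries 1 and 2) and the highest share of ribosomal protein counts in its group. Library 3 of MxCre DN3 also had the lowest Malat1 share of its group, at 0.324% (0.711% and 0.685% in libraries 1 and 2). Summed over each list of other cell types, 6 myeloid markers ran from 39.8 to 494 CPM over the ETP libraries and from 10.8 to 23.9 over the DN3 libraries. 5 natural killer and innate lymphoid markers ran from 19.5 to 320 and from 69.5 to 236, 5 B cell markers from 8.98 to 37.0 and from 18.4 to 34.2, and 5 double-positive thymocyte markers from 163 to 268 and from 88.2 to 146. 4 stromal markers ran from 5.12 to 37.3 in ETP and from 54.6 to 84.8 in DN3, and 4 erythroid markers from 0 to 8.40 and from 0 to 0.903. In DN3, Elane, Fcgr3 and Pax5 were at 0 in all 4 groups. So were the stromal markers Col1a2, Col3a1 and Krt8, and the stromal sum in DN3 was therefore Epcam alone.

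Ribosomal protein mRNA made up a smaller share of the DN3 libraries than of the ETP libraries. The 85 genes held 6.64%, 6.71% and 6.97% of the counts in the IgG ETP libraries and 5.60%, 4.71% and 4.94% in IgG DN3, so the stages did not overlap. After the Notch1 antibody they held 6.09%, 6.39% and 7.81% in ETP and 4.73%, 4.04% and 3.97% in DN3. In MxCre mice they held 4.97%, 6.14% and 7.54% in ETP and 5.33%, 4.71% and 4.97% in DN3, and here the stages overlapped. The DeltaMxCre libraries held 5.77%, 5.14% and 5.41% in ETP and 4.54%, 3.77% and 3.79% in DN3, the lowest mean of the 8 groups at 4.03 ± 0.443%. In these bulk samples fewer cells of a type and less RNA per cell cannot be told apart, and the share also depends on what else was sequenced. Rn45s, the ribosomal RNA precursor, took 7.41% to 16.3% of the ETP libraries and 2.75% to 8.82% of the DN3 libraries, and its part in the shares was not tested beyond leaving it out of the total. Without it the MxCre libraries held 5.83%, 7.34% and 8.85% in ETP and 5.78%, 5.16% and 5.33% in DN3, which no longer overlap, by a narrow margin.

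The large subunit genes held more counts than the small subunit genes in every library. In IgG ETP the large subunit took 3.89 ± 0.0955% of the counts and the small subunit 2.89 ± 0.0990%, and in DeltaMxCre DN3 they took 2.40 ± 0.225% and 1.63 ± 0.219%. The log2 ratio of large to small subunit counts was 0.43 ± 0.04 in IgG ETP, 0.43 ± 0.04 in AntiNRR ETP, 0.42 ± 0.06 in MxCre ETP and 0.45 ± 0.03 in DeltaMxCre ETP. It was 0.49 ± 0.02 in IgG DN3, 0.54 ± 0.03 in AntiNRR DN3, 0.48 ± 0.01 in MxCre DN3 and 0.57 ± 0.06 in DeltaMxCre DN3. In DN3, each AntiNRR library (0.51 to 0.57) was above each IgG library (0.47 to 0.50), and each DeltaMxCre library (0.50 to 0.60) was above each MxCre library (0.47 to 0.49). These ratios are descriptions over the summed counts and carry no test. Sums weigh abundant genes most, and Rpsa, of the small subunit, had the highest mean level of all members (3961 CPM). Its part in the ratios was not tested. Taken gene by gene in DN3, the median log2 fold change after the antibody was -0.25 for the large and -0.26 for the small subunit. After Zmiz1 deletion it was -0.30 and -0.39. The ratios therefore do not show a shift across whole subunits.

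**Figure D1:**
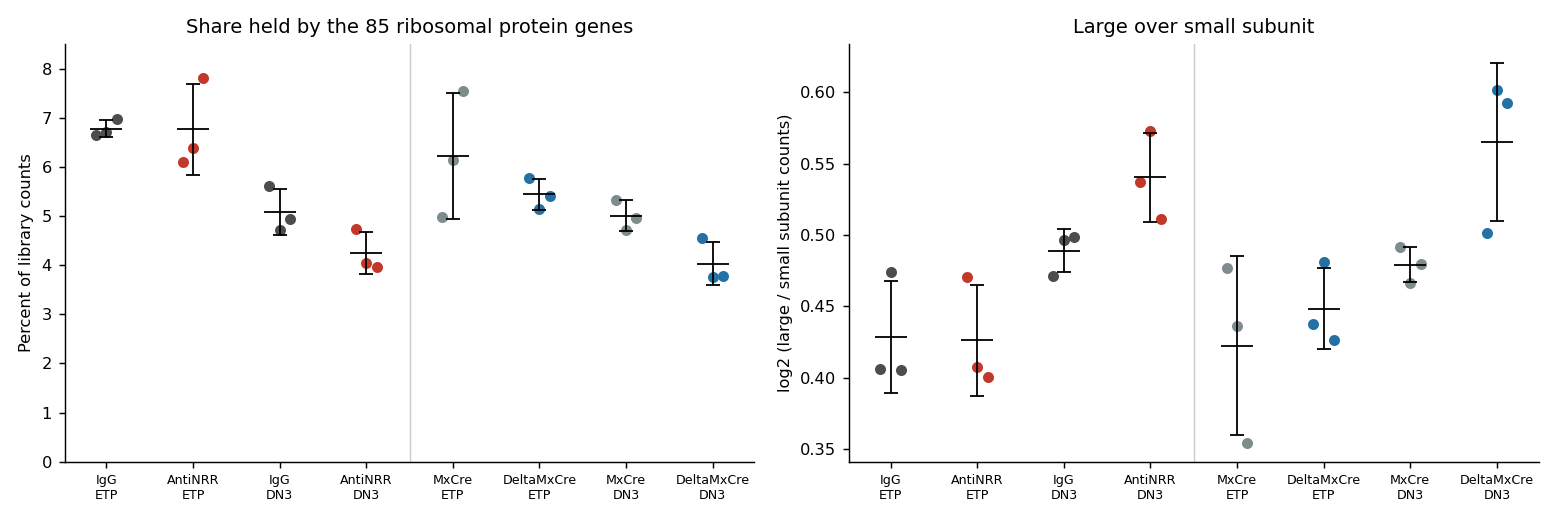
Each point is 1 library, grouped by treatment and stage, with the mean and SD of the 3 libraries as bars. The left panel gives the percent of library counts held by the 85 ribosomal protein genes, lowest in DeltaMxCre DN3 (3.77% to 4.54%), and the right panel gives the log2 ratio of large to small subunit counts on an axis that does not start at 0.

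Levels differed widely between members. Per kilobase of the longest coding transcript and averaged over the 24 libraries, Rps6, the small subunit protein phosphorylated by S6 kinase, led with 2642 CPM per kilobase, followed by Rpl13a with 2626 and Rpsa with 2044. With the shortest principal transcript as the length, Rplp2, an acidic stalk protein that helps to recruit elongation factors, led with 3770. At the other end, Rpl10l, an autosomal copy of Rpl10 known from testis, had 0 counts in all 24 libraries, and Rpl39l, also known from testis, had 48 counts in total. Rpl3l, the muscle paralog of Rpl3, had 284 counts, and Rps4y2 had 317. GENCODE places Rps4y2 at the locus it names Rps4l (chromosome 6, 148354656 to 148355598, GRCm38), a transcribed processed pseudogene. Rpl34 had only 1515 counts and Rpl30 3993. The pseudogene row Rpl34-ps1 held more counts than Rpl34 in each library, so how reads were divided between these near-identical copies is uncertain, and the values of Rpl34 are too. Many members have processed pseudogenes, and how reads that match several copies were counted is not given in the sources used here.

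The filter on low counts kept 81 members in each treatment comparison in ETP and 82 in each comparison in DN3 or between stages. Those left out were Rpl10l and Rpl39l in all of them, with Rpl3l, Rps4y2 or both.

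The question of how the stages differ was asked 4 times, in separate libraries, within each treatment. In IgG-treated mice most ribosomal protein genes were lower in DN3 than in ETP: edgeR called 55 of 82 lower (67.1%) and 0 higher, at an adjusted p under 0.05, against 7.60% of all 12720 genes tested called lower and 7.12% higher. In 64 members every DN3 library was below every ETP library (all genes 16.6%). Of the large subunit 33 of 49 were called, and of the small subunit 22 of 33. The median log2 fold change was -0.53 over the members and -0.01 over all genes.

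The stalk protein Rplp1 (chromosome 9, 61913284 to 61914542, minus strand, GRCm38) stood at 1103, 1295 and 1382 CPM in IgG ETP and at 707, 541 and 528 in IgG DN3. Every DN3 library was below every ETP library, with a log2 fold change of -1.09 (SE 0.137, adjusted p = 7.04e-05, edgeR). Rpl41, which encodes one of the smallest proteins of the cell, stood at 435, 423 and 572 CPM in ETP and at 246, 184 and 164 in DN3. Its log2 fold change was -1.27 (SE 0.161, adjusted p = 7.45e-05), the largest fall among the called members. Rpl36 fell from 302 ± 30.5 to 154 ± 15.4 CPM (adjusted p = 0.000118) and Rps18 from 701 ± 46.2 to 390 ± 24.4 (adjusted p = 0.00015).

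Other members with known roles outside the plain subunit fell too, some by more and some by less than the member median of -0.53. Rps6 had a log2 fold change of -0.78 (adjusted p = 0.000511) and Rps3, which also takes part in DNA repair, of -0.74 (adjusted p = 0.00203). Rps19, mutated in Diamond-Blackfan anaemia, had -0.64 (adjusted p = 0.00431), Rpl5 -0.56 (adjusted p = 0.00702), Rpl38 -0.56 (adjusted p = 0.0308), Rpl10a -0.57 (adjusted p = 0.0109) and Rpl13a -0.45 (adjusted p = 0.0124). Rpsa, the 40S protein once described as a laminin receptor, had -0.49 (adjusted p = 0.0139). The stalk proteins Rplp2 and Rplp0 had -0.54 (adjusted p = 0.00431) and -0.39 (adjusted p = 0.0303). Rpl11 did not pass, at -0.37 (adjusted p = 0.0676).

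**Figure D2:**
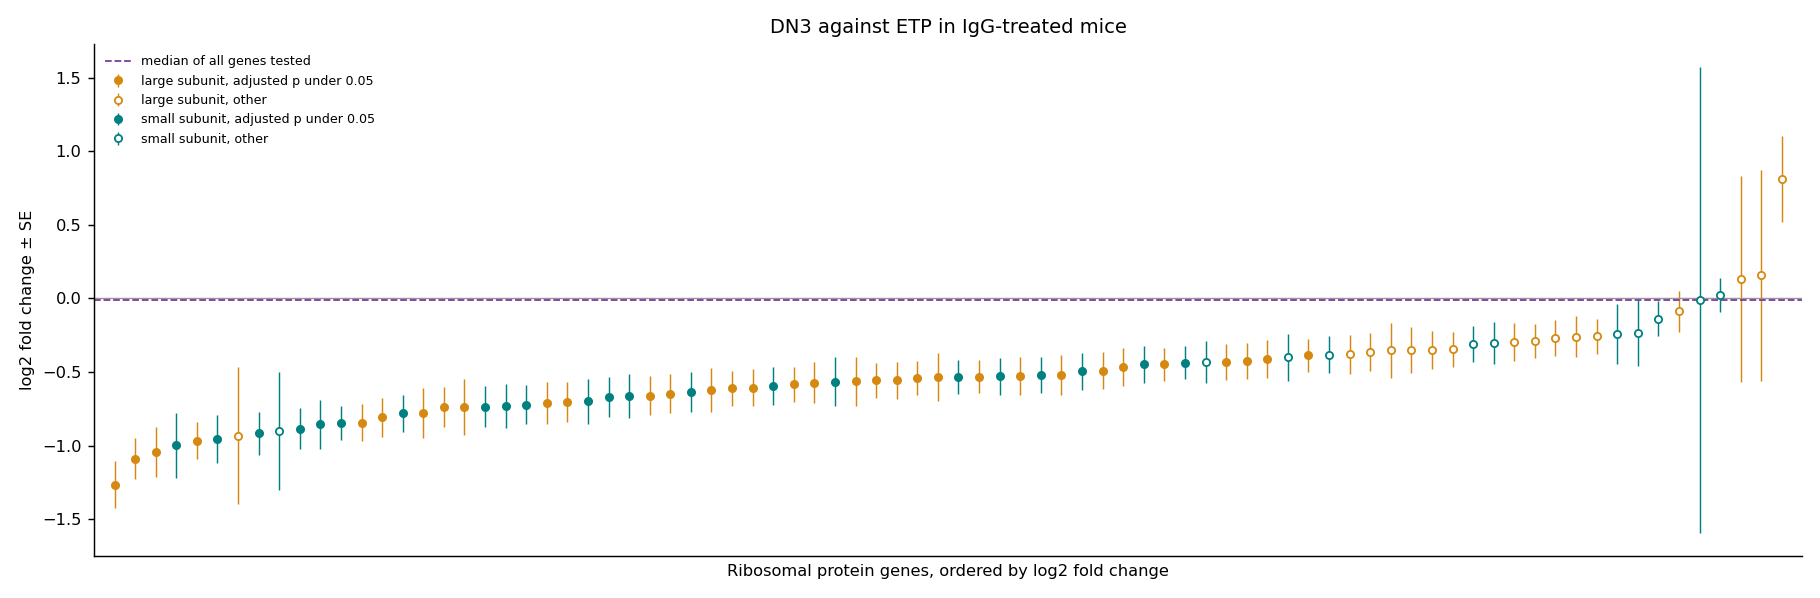
Each point is 1 of the 82 tested members in IgG-treated mice, ordered by its log2 fold change from ETP to DN3, with the edgeR standard error as a bar. Filled points passed an adjusted p under 0.05. The values run from -1.27 for Rpl41 to 0.81 for Rpl22l1, and 78 of 82 lie below 0.

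After the Notch1 antibody, edgeR called 60 of 82 members lower in DN3 (73.2%; all genes 5.87%) and 0 higher (all genes 5.75%), with a median of -0.72. In 70 members the stages did not overlap, with DN3 lower (all genes 15.4%). The calls took in 33 of 50 large and 27 of 32 small subunit genes. Rpl41 (-1.40, adjusted p = 8.8e-05), Rplp1 (-1.17, adjusted p = 0.000331) and Rps12 (-1.20, adjusted p = 0.000547) had the lowest p-values. In DeltaMxCre mice it called 50 of 82 lower (61%; all genes 6.21%) and 0 higher (all genes 5.14%), with a median of -0.58. In 59 members the stages did not overlap, with DN3 lower (all genes 14.6%), and 30 of 49 large and 20 of 33 small subunit genes were called. There Rpl10 (-0.78, adjusted p = 0.00126), Rplp1 (-1.06, adjusted p = 0.0014) and Rps3a (-0.78, adjusted p = 0.00145) were among those with the lowest p-values.

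In MxCre control mice edgeR called 0 of 82 members in either direction (all genes 2.99%), and DESeq2 called 9 lower. At an unadjusted p below 0.05, 27 members were lower (all genes 9.15%) and 0 higher (all genes 7.55%). The median was -0.45, and 71 of 82 members were below 0. The members with the lowest p were Rpl39 (-0.76, SE 0.216, adjusted p = 0.104) and Rpl18 (-0.62, SE 0.2, adjusted p = 0.148). Rps6 stood at 2316, 2997 and 4334 CPM in MxCre ETP and at 2251, 1870 and 1873 in MxCre DN3. The ETP libraries of this group thus spread more widely than the stages lay apart. Without its library 3 the median was -0.22 and still 0 members were called, and without its library 1, 8 members were called lower.

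Across the stage comparisons in IgG, AntiNRR and DeltaMxCre mice, which share no library, 42 of the 85 members were called lower in each, 24 of the large and 18 of the small subunit. Over the genes tested in each, that is 51.9% of 81 members and 2.69% of all 11938 genes. A further 15 members were called in 2 of them (18.5%; all genes 3.10%) and 9 in 1 (11.1%; all genes 5.93%). Rpl22, Rpl22l1, Rps27 and Rps27l were among the 19 called in none, which include 4 that were not tested in each. The size of some counts rested on single libraries. Without IgG DN3 library 2 or 3, 31 or 28 members were called in IgG mice. Without AntiNRR DN3 library 2 or 3 the count after the antibody was 27 or 34. Without DeltaMxCre ETP library 1 or DeltaMxCre DN3 library 2 or 3 the count in DeltaMxCre mice was 30, 21 or 26. With one spread estimated over all 8 groups the count in IgG mice was 36 and in MxCre mice 22.

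Other measures moved with the stage. In IgG mice the 6 myeloid markers summed to 73.7 to 334 CPM in ETP and to 11.9 to 23.5 in DN3, with Elane at 0 in ETP and Mpo, Elane and Fcgr3 at 0 in DN3, and Rn45s took 11.0 ± 2.49% and 3.13 ± 0.535% of the counts. Scaling without the members and Rn45s left 57 members called lower in IgG mice. The labels also give fewer sorted cells for ETP than for DN3. The Spearman rho of transcript length with the stage difference over the 82 members was 0.28 in IgG, 0.15 in AntiNRR, -0.12 in MxCre and -0.08 in DeltaMxCre mice, so its sign was not the same throughout. Over all genes with a length it was 0.24, 0.28, 0.15 and 0.18, and these are descriptions over genes that share libraries. The part of markers, cell number and length in the stage difference was not tested.

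**Figure D3:**
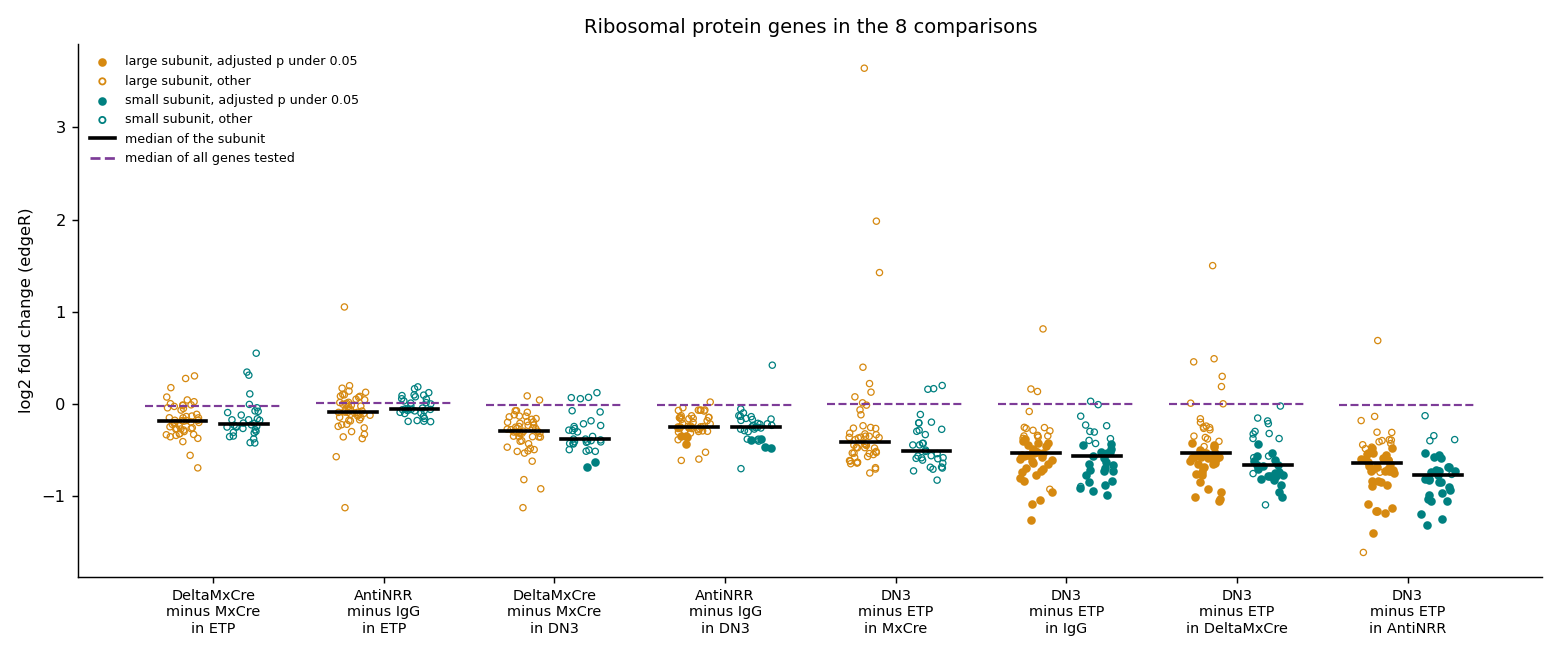
Each point is 1 member in 1 of the 8 comparisons, with its edgeR log2 fold change, the large subunit to the left and the small subunit to the right. Filled points passed an adjusted p under 0.05, black lines are subunit medians and dashed lines the median of all genes tested. The medians lie lowest in the stage comparisons, down to -0.72 over all members after the antibody, and nearest to 0 for the antibody in ETP. The open points above 1 in MxCre mice include Rpl3l (3.64) and Rpl34 (1.98), which rest on few counts.

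After Zmiz1 deletion, DN3 cells had lower values for most ribosomal protein genes, though few passed the test. After pI-pC, edgeR called 2 of 82 members lower (2.44%; all genes 0.458%) and 0 higher (all genes 0.986%). At an unadjusted p under 0.05, 38 members were lower (46.3%; all genes 7.83%) and 0 higher (all genes 8.28%), and in 32 members every DeltaMxCre library was below every MxCre library (all genes 10.5%). The median was -0.31, at -0.30 for the large and -0.39 for the small subunit, against -0.01 for all genes, and 76 of 82 members were below 0. Here and in the other comparisons the members share libraries, so counts of members are not independent results. The pooled SD of the library medians within these groups was 0.16 on the log2 scale.

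Rpsa (chromosome 9, 120127689 to 120132369, plus strand, GRCm38) stood at 3442, 3524 and 4750 CPM in MxCre DN3 and at 2788, 2067 and 2380 in DeltaMxCre DN3. The groups did not overlap, and its log2 difference was -0.69 (SE 0.158, adjusted p = 0.039). Rps19 (chromosome 7, 24884371 to 24889806, plus strand) stood at 397, 356 and 287 CPM in MxCre and at 259, 189.5 and 221 in DeltaMxCre. Its groups did not overlap, and it changed by -0.64 on the log2 scale (SE 0.151, adjusted p = 0.0469). Rpl13a, which can leave the ribosome and repress inflammatory mRNAs, stood at 2644, 2225 and 2634 CPM and at 1839, 1700 and 1711. The lowest control library was above the highest deleted library, but the test was just missed (-0.51, SE 0.128, adjusted p = 0.0574).

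The stalk protein Rplp0 had a log2 fold change of -0.54 (adjusted p = 0.0744), Rplp1 of -0.40 (adjusted p = 0.302) and Rplp2 of -0.26 (adjusted p = 0.369). Rps6 had -0.27 (adjusted p = 0.376), Rpl5 -0.32 (adjusted p = 0.26) and Rpl11 -0.25 (adjusted p = 0.57). The calls of Rpsa and Rps19 were lost with one spread over all 8 groups (adjusted p = 0.123 and 0.206). Leaving out 1 library gave 0 members without MxCre 2 or DeltaMxCre 2 or 3, 1 without MxCre 1, 5 without DeltaMxCre 1 and 6 without MxCre 3. Rn45s took 7.75 ± 1.03% of the counts in MxCre DN3 and 4.88 ± 0.181% in DeltaMxCre DN3, Malat1 0.573 ± 0.216% and 1.18 ± 0.194%, and their part was not tested.

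Notch1 blockade in DN3 cells lowered 8 of 82 members by edgeR (9.76%; all genes 2.96%) and raised 0 (all genes 2.65%). The 8 were Rpsa, Rpl3, Rpl35, Rps20, Rpl12, Rps27a, Rps12 and Rpl13, 4 of each subunit. At an unadjusted p under 0.05, 34 members were lower (all genes 8.66%) and 0 higher (all genes 8.29%), and 14 did not overlap with all antibody libraries below (all genes 11.0%). The median was -0.25, the same for the large and small subunits at -0.25 and -0.26, and 80 of 82 members were below 0.

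Rpsa stood at 3805, 3462 and 3537 CPM in IgG DN3 and at 2760, 2754 and 2816 in AntiNRR DN3. The antibody libraries lay close together and below the controls, a log2 change of -0.39 (SE 0.08, adjusted p = 0.00387). Rpl3, a core protein near the peptidyl transferase centre (chromosome 15, 80077791 to 80091868, minus strand), stood at 1433, 1354 and 1273 CPM and at 1124, 938 and 955. Its groups did not overlap either (-0.44, SE 0.0914, adjusted p = 0.00407). Rpl35, at the exit of the peptide tunnel, fell from 965 ± 34.9 to 763 ± 39.6 CPM (-0.35, adjusted p = 0.0152). Rps20 stood at 418, 306 and 320 CPM and at 298, 217 and 238, where the highest antibody library was just below the lowest control (-0.49, SE 0.127, adjusted p = 0.0254). Rps27a, which is made as a fusion with ubiquitin, had -0.40 (adjusted p = 0.0364) with overlapping groups.

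Rps19 did not pass after the antibody (-0.28, adjusted p = 0.221), nor did Rplp0 (-0.22, adjusted p = 0.158) or Rpl11 (-0.31, adjusted p = 0.129). Rps26 had the largest difference below 0 among the tested members, at -0.71 (adjusted p = 0.0543), with 208, 105 and 168 CPM in IgG and 105, 94.6 and 97.5 after the antibody. All 8 calls were lost with one spread over all 8 groups. Leaving out 1 library gave 2 members without IgG 3 or AntiNRR 2 or 3, 3 without IgG 1 and 14 without AntiNRR 1. Of other measures, Rn45s took 3.13 ± 0.535% in IgG DN3 and 5.70 ± 1.03% after the antibody. The 5 natural killer and innate lymphoid markers summed to 107 to 130 CPM and 208 to 236, with Ncr1 and Klrb1c at 0 in both groups and Il2rb at 0 in IgG. Nearly all of that sum was Gzma, at 106 to 130 CPM in IgG and 208 to 233 after the antibody. Their part was not tested.

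**Figure D4:**
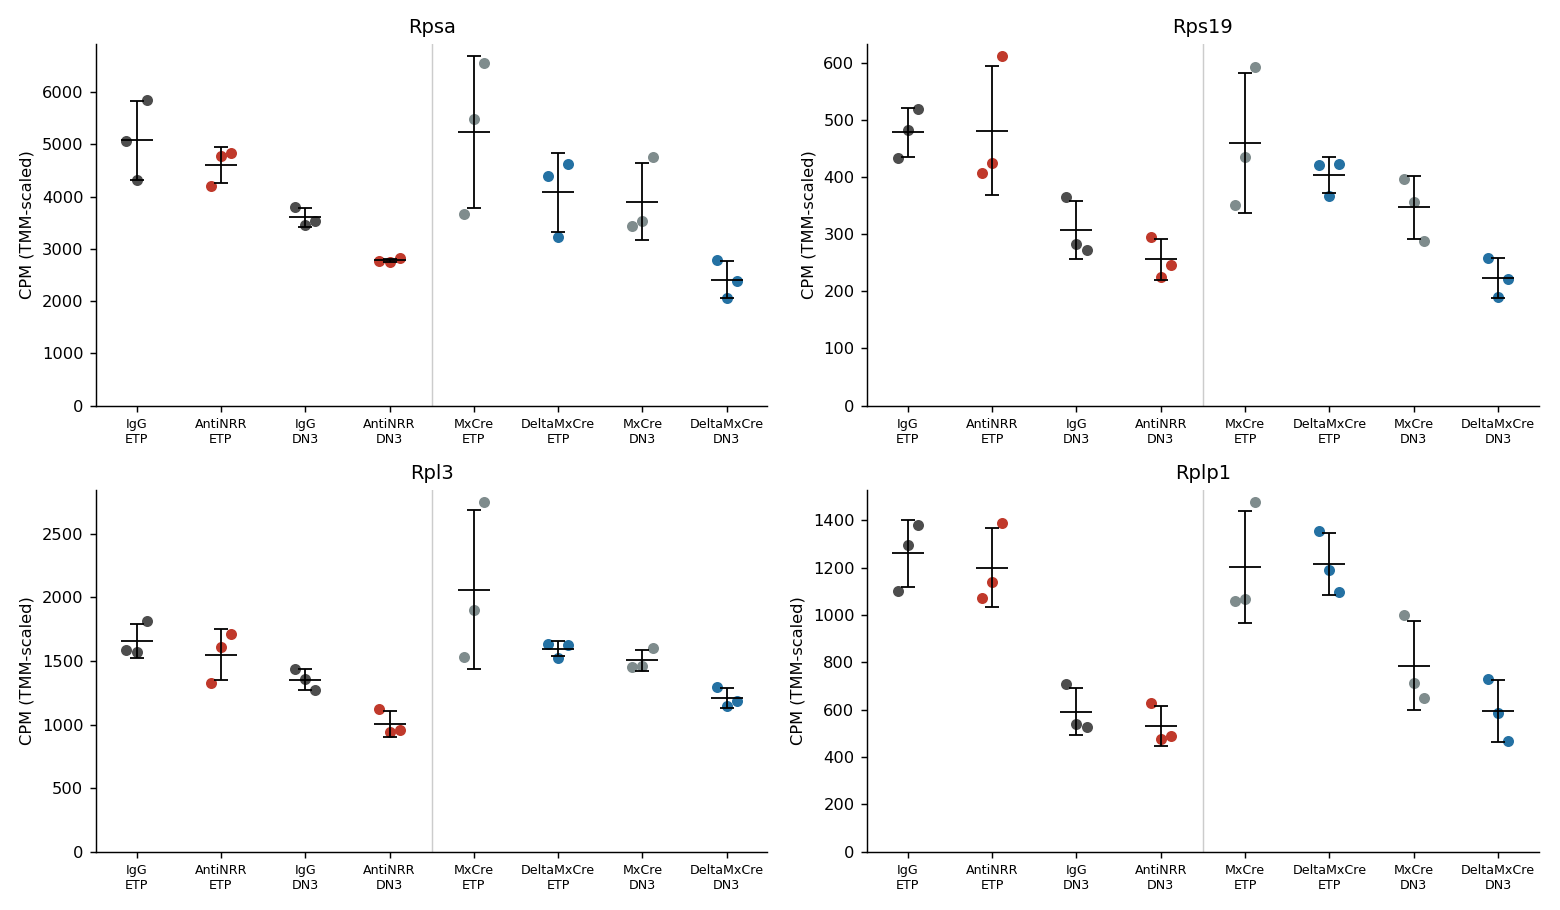
Each point is the level of 1 gene in 1 library in TMM-scaled CPM, with the group mean and SD of 3 libraries, for Rpsa, Rps19, Rpl3 and Rplp1. For Rpsa the 3 DeltaMxCre DN3 libraries (2067 to 2788) and the 3 AntiNRR DN3 libraries (2754 to 2816) each lie below all libraries of their controls.

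In ETP cells neither treatment gave a called member. After Zmiz1 deletion, edgeR called 0 of 81 members, and DESeq2 also called 0, while edgeR called 0.0416% of all genes. At an unadjusted p under 0.05 there were 0 members higher (all genes 2.71%) and 0 lower (all genes 2.85%), and in Rps18 alone the groups did not overlap, with the deleted libraries lower (all genes 6.46%). The median was -0.21, and 71 of 81 were below 0. Among the lowest p-values were those of Rps18 (-0.43, SE 0.22, adjusted p = 0.931) and Rps4x (-0.43, SE 0.219, adjusted p = 0.931). Rpsa stood at 3669, 5483 and 6548 CPM in MxCre ETP and at 4402, 3217 and 4631 in DeltaMxCre ETP, so its groups overlapped. Without library 3 of MxCre ETP the median was 0.00, so the direction over the members rested on that library.

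After the Notch1 antibody in ETP, edgeR called 0 of 81 members and 0 of all 12568 genes, and DESeq2 called 0 members. At an unadjusted p under 0.05, 3 members were lower (all genes 2.86%) and 1 was higher (all genes 2.61%), and the groups did not overlap in 4 lower members (all genes 5.96%) and 1 higher member (all genes 5.85%). The median was -0.07. The member higher at that level was Rpl22l1, described with its pair. Rpl28 (-0.38, SE 0.158, adjusted p = 0.858) and Rpl36 (-0.36, SE 0.158, adjusted p = 0.895) came next, and in both every antibody library was below every control library. Zmiz1 stood at 97.7 CPM in library 3 of AntiNRR ETP against 249 and 232 in the other two, and without that library the median was -0.15 with 0 members called.

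Whether these effects differ was tested in 4 interaction models, and edgeR called 0 of 83 members in each. DESeq2 also called 0 in each. The pI-pC effect in DN3 minus that in ETP had a median of -0.12 over the members and none at an unadjusted p under 0.05 (all genes 2.89% higher and 2.63% lower). Rps19 (-0.45, adjusted p = 0.956), Rpl13a (-0.38, adjusted p = 0.956) and Rplp1 (-0.42, adjusted p = 0.971) came first by p, and 0.00746% of all genes were called. The antibody effect in DN3 minus that in ETP had a median of -0.16. At an unadjusted p under 0.05, 5 members were lower (all genes 2.62%) and 0 higher (all genes 2.84%), led by Rpl22l1 (-1.56, SE 0.457, adjusted p = 0.901), Rps4y2 and Rps20 (-0.52, adjusted p = 0.901), with 0 of 13603 genes called. A low p of Rps4y2 rests on few counts: it had 0 in all 3 AntiNRR DN3 libraries, and 16, 1 and 11 in IgG DN3.

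Between the deletion and the antibody effect in DN3 the median difference was -0.10, with 2 members higher (all genes 6.46%) and 5 lower (all genes 6.05%) at an unadjusted p under 0.05, and 1.23% of all genes called. Rps26 (0.81, SE 0.247, adjusted p = 0.129), Rps4y2 and Rpl13a (-0.38, SE 0.147, adjusted p = 0.247) came first. In ETP the median difference was -0.14, with 1 member lower (all genes 3.29%) and 0 higher (all genes 3.11%) at an unadjusted p under 0.05, and 0.0820% of all genes called. Rpl22l1 (-1.74, SE 0.596, adjusted p = 0.564), Rps3 (-0.46, adjusted p = 0.874) and Rps4x (-0.42, adjusted p = 0.889) came first. So Rpsa and Rps19 were not shown to respond differently between stages or treatments.

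Rpl22l1 (chromosome 3, 28805436 to 28807424, plus strand, GRCm38) moved opposite to Rpl22 (chromosome 4, 152325742 to 152334071, plus strand) in some comparisons. Neither gene was called in any comparison of treatments or stages. Rpl22 stood at 272, 271 and 314 CPM in IgG ETP, 249, 305 and 244 in AntiNRR ETP, 249, 223 and 244 in IgG DN3 and 234, 224 and 183 in AntiNRR DN3. Rpl22l1 stood at 16.2, 10.5 and 14.2 CPM in IgG ETP, the lowest group, and at 17.4, 30.5 and 37.0 in AntiNRR ETP. In IgG DN3 it stood at 20.5, 23.5 and 28.0 and in AntiNRR DN3 at 12.5, 21.1 and 16.8. In ETP each antibody library was thus above each control (log2 difference 1.05, SE 0.366, adjusted p = 0.767). In IgG mice each DN3 library was above each ETP library (0.81, adjusted p = 0.0772), but neither passed.

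As a share of the pair, Rpl22l1 made up 5.64%, 3.74% and 4.33% of the counts in IgG ETP and 6.54%, 9.09% and 13.2% in AntiNRR ETP. The shares did not overlap, and the exact two-sided permutation test gave p = 0.1, the smallest that 3 against 3 allows (adjusted p = 0.933 over 56 tests). In IgG DN3 the share was 9.15 ± 1.38% and in AntiNRR DN3 7.37 ± 2.00%. Between IgG DN3 and IgG ETP the shares did not overlap either, and the exact permutation test again gave p = 0.1 (adjusted p = 0.933). In the pI-pC experiment it was 9.82 ± 1.55% in MxCre ETP, 6.61 ± 1.56% in DeltaMxCre ETP, 9.63 ± 3.08% in MxCre DN3 and 11.2 ± 4.98% in DeltaMxCre DN3, with overlapping libraries in most comparisons. The IgG ETP libraries were below those of all other groups except DeltaMxCre ETP and AntiNRR DN3, whose lowest libraries held 5.07% and 5.06%.

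**Figure D5:**
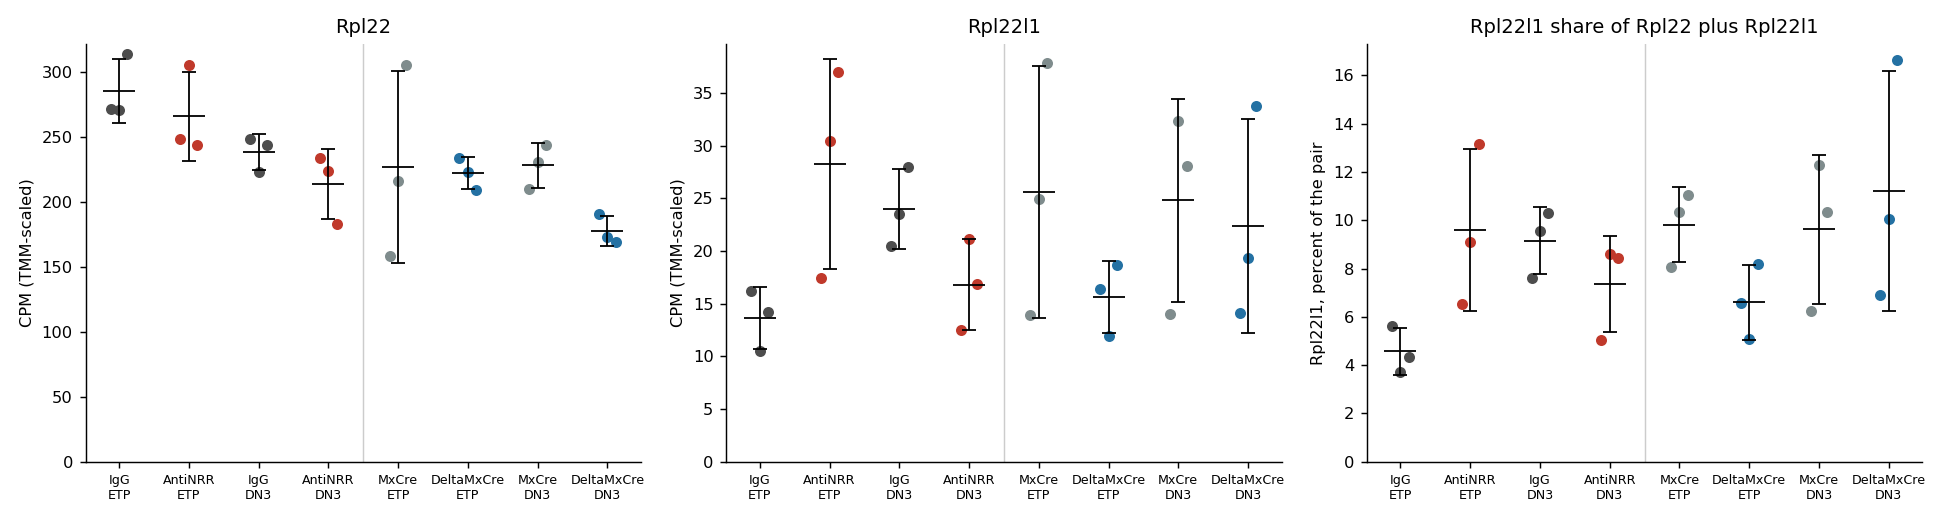
Each point is 1 library, with the group mean and SD of 3 libraries, for Rpl22 in CPM, Rpl22l1 in CPM and the percent of the pair's counts that came from Rpl22l1. Rpl22l1 lies lowest in IgG ETP (3.74% to 5.64% of the pair).

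No pair, the Rpl22 pair included, was shown to differ in share between groups. Rps27l, the p53-responsive paralog of Rps27, held between 3.23 ± 0.475% (IgG DN3) and 6.05 ± 3.77% (DeltaMxCre ETP) of its pair, and its level ranged from 4.41 to 17.6 CPM. Rpl7l1, which acts in assembly of the large subunit, held 5.94 ± 0.739% to 8.64 ± 0.807% of its pair with Rpl7. Rpl36al and Rpl36a were close to even, with 45.2 ± 4.49% to 53.2 ± 1.48% from Rpl36al. Rpl3l held at most 0.289% of its pair with Rpl3 in any library, Rpl39l at most 0.667% and Rps4y2 at most 0.333%. Over 7 pairs and 8 comparisons, 56 exact tests, the lowest adjusted p was 0.933, in a design where no single test can go below 0.1. Rpl22l1, Rpl3l and Rps4y2 each reached 0.1 in 2 comparisons, Rpl3l and Rps4y2 on few counts.

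Genes that share the TOP motif or serve the same pathway were read from lists. Of 18 other TOP mRNAs, mostly elongation factors, 6 were called lower after the antibody in DN3 (all genes 2.96%), among them Hnrnpa1 (-0.71, adjusted p = 0.00574) and Npm1 (-0.46, adjusted p = 0.00689), and 0 higher. From ETP to DN3 they were called lower in 8 cases in IgG (all genes 7.60%), 8 in AntiNRR (5.87%) and 9 in DeltaMxCre mice (6.21%). In MxCre mice edgeR called 0, with 6 lower at an unadjusted p under 0.05 (9.15%). In IgG mice the lowest p-values of this list were those of Gnb2l1, the scaffold protein on the small subunit, at -0.57 (adjusted p = 0.00438), and Eef1a1, which brings aminoacyl-tRNA to the ribosome, at -0.59 (adjusted p = 0.00491). After Zmiz1 deletion in DN3 none of the 18 passed in edgeR, 11 were lower at an unadjusted p under 0.05 (all genes 7.83%), and the median was -0.34, with Eef1a1 at -0.43 (adjusted p = 0.146).

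Of 14 chaperones and loaders of ribosomal proteins, 4 were called lower after the antibody in DN3 (all genes 2.96%), led by Heatr3, a carrier of Rpl5 (-0.82, adjusted p = 0.00461), with Grwd1, the chaperone of Rpl3 (-0.90, adjusted p = 0.0262). The other two, Npm1 and Nap1l1, also stand in the TOP list. In the 4 stage comparisons 0 of the 14 were called, with 3, 1, 3 and 2 lower at an unadjusted p under 0.05 in IgG, MxCre, AntiNRR and DeltaMxCre mice. Over all genes that share was 14.3%, 9.15%, 12.8% and 13.7%, so these counts lie near the background. Of 15 regulators, Myc was lower after the antibody in DN3, at 170, 108 and 112 CPM in IgG and 67.8, 68.0 and 62.8 after it (-0.99, SE 0.156, adjusted p = 0.000253), as were Mycn (-0.99, adjusted p = 0.0147) and Polr1b, a subunit of RNA polymerase I (-0.55, adjusted p = 0.0263). Cdkn1a, a p53 target, was higher (0.79, adjusted p = 0.0209). After the antibody in ETP, edgeR called 0 of the 15 regulators and 0 of all 12568 genes. The antibody effect on Myc was not shown to differ between the stages. In DN3 minus ETP it was 0.02 on the log2 scale (SE 0.377, unadjusted p = 0.952, edgeR interaction). The fall of Myc is thus not shown to be particular to DN3. After Zmiz1 deletion in DN3, Myc ranged from 100.4 to 227 CPM in MxCre and from 74.9 to 104 in DeltaMxCre, which overlap (-0.84, SE 0.287, adjusted p = 0.211). From ETP to DN3 Myc had -0.18 (adjusted p = 0.578) in IgG mice.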

How the data were processed

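The estimated counts per gene symbol were deposited by the authors as tables that are not scaled between libraries. Between 0.507% and 0.863% of the values were over 0.01 from a whole number, so counts were rounded. The submitters' processing notes name Cuffdiff 2.1.1, Cufflinks, TopHat2 2.0.9 with Bowtie2 2.1.0.0, the build mm10 and, for read quality, FastQC 0.10.0, and the counting settings are not given in the sources used here. Per the labels' protocols, the 24 libraries were made from 10 ng of RNA with 16 PCR cycles, after ribosomal RNA removal. Each comparison used its own groups in R 4.3.3: filterByExpr (minimum count 10, minimum total 15), TMM, and the robust quasi-likelihood test of edgeR 4.0.16 with Benjamini-Hochberg adjustment over all genes, checked on simulated data. Fold changes used a prior count of 0.125, and interactions used 4 groups each. Levels are CPM on one TMM scale over the 24 libraries, and SE is the log2 fold change over the root of F. Paralog shares were tested by exact permutation in SciPy 1.17.1. Alternatives were DESeq2 1.42.0, its size factors, scaling without the members and Rn45s, other filters, one spread over all groups, a replicate block and leaving out each library.

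The members and lists were chosen with earlier results of these data known. Named were paralogs, members with roles outside the subunit, the 4 called members with the lowest p per comparison (otherwise the 3 lowest), and the 2 lowest of a pathway list, given here for comparisons with calls in it. A few genes that the rule names are not reported here. Rpl41 by fall, Rps26 and Myc levels, and the printed start sites were picked after values were seen. Positions are from GENCODE M21, matched by symbol for all 85. Counting depth limits the rare paralogs most.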

Additional observations from a re-analysis of the deposited data

How the results depend on the processing

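No called result reversed under the alternatives that were run, and 0 members were called higher in the full data. The count of members called lower changed with the estimate of spread and with single libraries. After pI-pC in DN3 it was 10 with DESeq2, 8 with no filter beyond 1 count and 0 with one spread over all 8 groups (2 in the main test). After the antibody in DN3 it was 0 with the shared spread, and from ETP to DN3 it was 36 in IgG mice, and 22 in MxCre mice, where DESeq2 gave 9. The cause was not tested. With the replicate number as a block the counts were 5 after pI-pC in DN3, 18 after the antibody in DN3 and 1 between stages in MxCre mice. Same-numbered libraries correlated between -0.132 and 0.247, in no comparison all over 0.1, so the numbers are not taken to pair libraries. Between stages in MxCre mice the values were 0.121, 0.0296 and 0.247 for replicates 1, 2 and 3. The highest with another number were 0.00588, 0.148 and -0.0304, so pairing there is uncertain.

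Leaving out each library gave 0 to 6 members called lower after pI-pC in DN3, 2 to 14 after the antibody in DN3, and between stages 28 to 58 in IgG, 0 to 8 in MxCre, 27 to 64 in AntiNRR and 21 to 51 in DeltaMxCre mice. Members called higher ran from 0 to 1 in IgG and DeltaMxCre mice and in the difference between deletion and antibody in DN3 (Rps26, 1.04, without IgG DN3 library 2). The median of the pI-pC stage difference ran from -0.33 to 0.00 (8.23e-05). Of the 48 leave-one-out medians in the 8 comparisons, 45 were below 0, and the exceptions were in ETP. Without Rn45s in the total the members held 7.62% in ETP and 5.25% in DN3 in IgG mice, 7.46% and 4.50% in AntiNRR, 7.34% and 5.42% in MxCre and 6.32% and 4.24% in DeltaMxCre mice.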
